A study of Rattus norvegicus with 15 samples.

Results

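Transporters that carry amino acids and small peptides across cell membranes were followed along the rat digestive tract. They were all genes with a non-control probe whose array name began with Slc1a, Slc3a, Slc6a, Slc7a, Slc15a, Slc16a10, Slc36a, Slc38a or Slc43a and a number. This rule found 55 genes on 69 probes, of 41012 distinct probes on the array, and each gene is read from its brightest probe. Of these genes, 54 were tested, among 33062 genes tested in all. The exception was Slc7a11, the light subunit of the cystine and glutamate exchanger, which was above background in 1 stomach sample alone. A filter on dim probes decided this: a gene was tested if any segment had all 3 of its samples well above background. In the stomach, whose files set a looser limit for that, 53 of the 55 genes qualified, against 28 in the ileum. Some genes, among them Slc6a3, Slc6a7 and Slc6a15, were tested through the stomach alone, and so was a gene found higher there. The families also hold carriers of neurotransmitters, taurine and creatine, which the rule takes in with the amino acid carriers proper.

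The samples were suspensions of mucosal cells from 5 segments, the stomach, colon, duodenum, ileum and jejunum, with 3 samples each and 15 in all. All labels gave male Sprague Dawley rats except those of ileum 3, which gave the tissue alone; age was not given, and no animal was treated or genetically altered. Cells were freed from everted segments with pronase, and total RNA from isolations that the series text calls independent was hybridised to Agilent whole-genome rat arrays with Cy3 or Cy5. Whether an isolation came from 1 animal or from several was not stated, and the 3 colon samples shared a slide, 2 of them in 1 hybridisation. The p-values below therefore measure the spread between these samples, which may be partly technical. These were mixed mucosal cells, so a lower level cannot be told apart from fewer cells of a type.

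Dietary protein is taken up in the small bowel as free amino acids and as short peptides, and peptidases of the brush border and the cytosol complete the digestion. Uptake at the apical membrane is driven by proton and sodium gradients or by exchange, and other carriers release amino acids at the basolateral membrane. Several carriers are pairs of a glycoprotein heavy subunit (Slc3a1 or Slc3a2) and a light subunit of the Slc7 family, which carries the substrate.

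Levels are the log2 processed signal minus the 75th percentile of the same sample, so a level of 0 is as bright as that percentile. Differences come from 1 limma fit over all genes with terms for segment and dye, so they can depart slightly from the difference between group means. A difference was called at a Benjamini-Hochberg adjusted p under 0.05 over all genes. The small bowel is the mean of duodenum, jejunum and ileum (9 samples). Levels of different genes are not compared, since each probe has its own brightness.

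Marker genes matched the labelled segments. The 8 gastric epithelial markers averaged 5.24 to 6.27 in stomach samples, 0.43 to 0.80 in duodenal samples and below 0 in all others. The 9 absorptive enterocyte markers averaged -2.95 to -2.65 in the stomach, -0.94 to -0.91 in the colon and 1.43 to 4.91 in the 9 small bowel samples, with jejunum 1 the highest. Markers of some other cell types also averaged higher in the stomach. The 6 fibroblast markers averaged 1.60 to 1.74 there and at most -0.65 elsewhere, the 9 measured neuronal and glial markers -0.76 to -0.58 in the stomach and at most -1.18 elsewhere, and the 13 pancreatic acinar markers 0.14 to 0.30 in the stomach and at most -0.65 elsewhere. The 5 measured T cell markers went the other way, at -2.38 to -2.01 in the stomach and at least -1.75 elsewhere. Macrophage and mast cell markers in the stomach overlapped those in the duodenum. Dissociation stress genes averaged -0.32 to -0.18 in the stomach, 5.08 to 5.31 in the colon and 2.89 to 4.64 in the small bowel. The stomach, colon and ileum arrays each had scan days of their own, and the stomach files came from an older software version with a looser limit for a signal well above background. Scan day and segment therefore cannot be told apart in contrasts with these segments.

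Along the tract, 26 of the 54 tested transporters differed among the 5 segments in the limma F test (48.1%), against 42.3% of all genes. Relative to the small bowel, 9 were higher in the stomach (background 15.7%) and 9 lower (background 11.8%). In the colon, 8 were higher (background 12.5%) and 13 lower (background 13.3%). The median difference was 0.20 for the stomach minus the small bowel, where all genes had a median of 0.28, and -0.18 for the colon minus the small bowel, where all genes had a median of 0.00. Other scalings moved the all-gene median for the stomach to between -0.06 (normexp background correction) and 0.37 (scaling to the median), and that for the colon up to 0.33 (normexp). The stomach and colon contrasts share the same 9 small bowel samples, so their calls are given side by side. Lower in both were 6 transporters (2.01% of all genes were), and 26 were called in neither (55.8% of all genes were). The heat map of the transporters shows these groups.

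**Figure D1:**
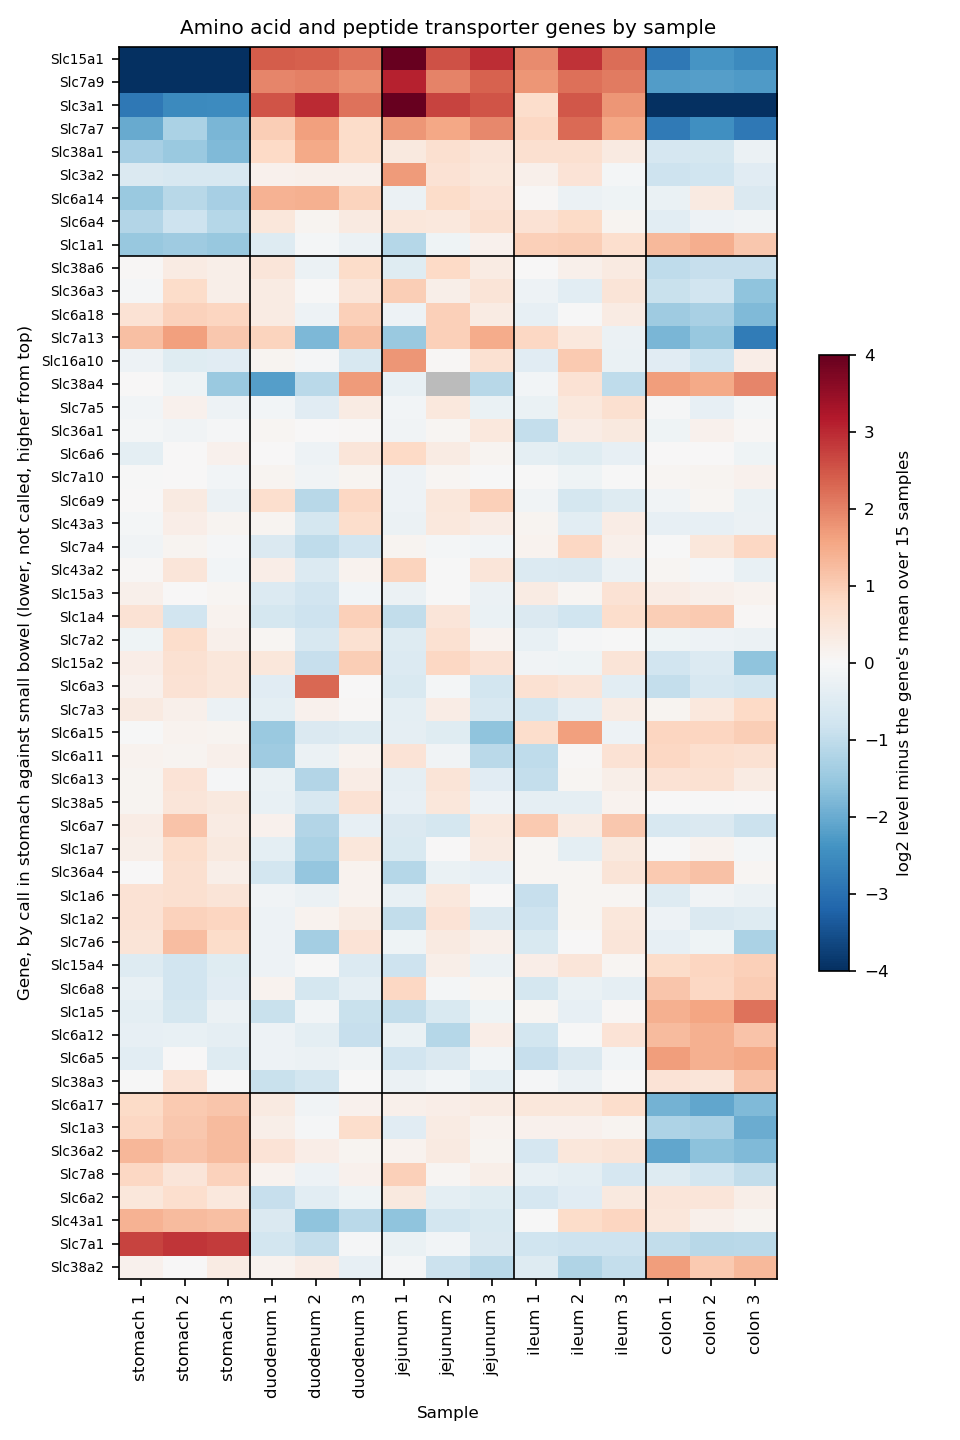
Heat map of 53 tested transporters (rows) in the 15 samples (columns); colour is the log2 level minus the gene's own mean over 15 samples, cut at -4 and 4, and grey marks a missing value. Rows are grouped by the call in the stomach against the small bowel: 9 lower at the top, 36 not called and 8 higher at the bottom.

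The first 30 bases of both probes are shown for each of 4 genes whose probes disagree, since the result depends on which one is read, with the brightest first. The sequences come from the deposited scanner files and carry no capitals, as no stretch is singled out. All are 60 bases long on the array, and the 2 probes of a gene shared no run of 12 bases.
Slc7a1 brightest: ggtaccctttgtccccgtacttcctgtctt
Slc7a1 second: gtcacagagggtcatgatactaatgagggc
Slc38a2 brightest: attccccctaaattttcttaactgcatttt
Slc38a2 second: cagccggagaaggatgatgaacgtgtccaa
Slc6a8 brightest: ggtaagggtgcaagcctttggggacattct
Slc6a8 second: atggagctgaccgcttcatggacgatattg
Slc1a5 brightest: agaggtctccaccctttgaaggcaaaatat
Slc1a5 second: tcccaagggaaagctaaagatgaatattgt

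The largest difference among the tested transporters was that of a peptide carrier. Slc15a1, the proton-coupled carrier that takes up di- and tripeptides at the brush border, had levels of -5.85, -4.84 and -4.40 in the stomach and -2.24, -1.75 and -1.93 in the colon, against 3.03, 3.01 and 2.77 in duodenal samples, 5.79, 3.14 and 3.57 in jejunal samples and 2.49, 3.51 and 2.85 in ileal samples. No stomach or colon sample reached a small bowel sample, and the stomach was below the colon. The difference was -8.38 ± 0.45 (SE, log2; 334-fold lower) for the stomach minus the small bowel (adjusted p = 4.1e-10, limma), with 2 of 3 stomach samples above background and a range of -8.82 to -6.27 over the alternatives, and -5.32 ± 0.57 (40.0-fold lower) for the colon (adjusted p = 4.6e-06, limma). The stomach minus the colon was -3.06 ± 0.64 (adjusted p = 0.0015, limma).

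The other peptide carriers gave 1 call. Slc15a2, known as the high-affinity peptide carrier of the kidney, and Slc15a3, a lysosomal peptide and histidine carrier, were called in neither contrast. Slc15a4, another lysosomal carrier, had 0.61, 0.71 and 0.82 in the colon, against -0.96 to 0.34 in the small bowel (median -0.15). The groups did not overlap, and the difference was 0.91 ± 0.32 (adjusted p = 0.042, limma). This call was lost without any 1 of 9 samples (adjusted p up to 0.13), and the dimmer probe gave -0.71.

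Cystine and dibasic amino acids enter by the pair of Slc3a1 and Slc7a9. The heavy subunit Slc3a1 had -4.01, -3.69 and -3.65 in the stomach and -5.24, -6.85 and -6.11 in the colon, against 1.39, 1.86 and 1.03 in duodenal samples, 3.75, 1.56 and 1.38 in jejunal samples and -0.45, 1.33 and 0.62 in ileal samples. Neither group overlapped the small bowel, and no colon sample was well above background. Slc3a1 was lower in the stomach (-5.17 ± 0.45, adjusted p = 1.4e-07, limma) and in the colon (adjusted p = 1.7e-07, limma). By the processed signal it was at least 66.6-fold lower in the colon, a bound set at the dimmest signal counted as well above background. With normexp the colon difference was -3.29, which is smaller than that bound, so the size is uncertain.

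The light subunit Slc7a9 was lower at both ends as well. Its levels were -2.45, -2.30 and -2.20 in the stomach and -0.34, -0.33 and -0.38 in the colon, against 3.65 to 4.97 in the small bowel (median 3.90), again with no overlap. It was 81.7-fold lower in the stomach (-6.35 ± 0.21, adjusted p = 1.5e-12, limma) and 20.8-fold lower in the colon (-4.38 ± 0.27, adjusted p = 1.2e-08, limma). Slc7a13, which in the mouse kidney pairs with Slc3a1, had -3.31, -3.00 and -4.28 in the colon, against -3.30 to 0.01 in the small bowel (median -0.67). The groups overlapped through duodenum 2, and the difference was -2.29 ± 0.71 (adjusted p = 0.026, limma). Leaving out 1 of duodenum 3, jejunum 3, colon 1 or colon 3 ended the call, with adjusted p of 0.051 to 0.076, as did normexp (-0.82).

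Basolateral release uses Slc3a2 as the heavy subunit. Slc7a7, its light subunit for the exchange of dibasic against neutral amino acids, had -3.75, -3.00 and -3.58 in the stomach and -4.58, -4.21 and -4.60 in the colon, against -1.01 to 0.52 in the small bowel (median -0.19). There was no overlap, and 1 of 3 colon samples was well above background. Slc7a7 was 8.99-fold lower in the stomach (-3.17 ± 0.31, adjusted p = 7.4e-07, limma) and lower in the colon (-4.23 ± 0.39, adjusted p = 1.1e-06, limma), where the size is uncertain, at -1.47 with normexp.

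Slc3a2 itself was lower at both ends too. It had 1.44, 1.36 and 1.35 in the stomach and 1.18, 1.19 and 1.56 in the colon, against 1.92 to 3.71 in the small bowel (median 2.20), where jejunum 1 was the highest. The groups did not overlap, and the differences were -1.06 ± 0.25 (adjusted p = 0.0040, limma) for the stomach and -1.09 ± 0.31 (adjusted p = 0.017, limma) for the colon. Without colon 1 the colon call was lost (-0.89, adjusted p = 0.099).

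The other light subunits of Slc3a2 did not follow Slc7a7. Slc7a8, a basolateral exchanger of neutral amino acids, had 3.88, 3.52 and 3.97 in the stomach, against a median of 3.11 in the small bowel (lowest 2.35), with jejunum 1 above every stomach sample. The difference was 0.76 ± 0.23 (adjusted p = 0.020, limma), and it was not called without stomach 1 (0.74, adjusted p = 0.087), without stomach 3 (0.58, adjusted p = 0.18) or with scan day as a random block (adjusted p = 0.15). In the colon Slc7a8 differed by -0.70 ± 0.29 and was not called (adjusted p = 0.085, limma). Slc7a5, an exchanger of large neutral amino acids, ranged from -2.54 to -1.45 over all 15 samples and was called in no contrast. Slc7a6, the paralogue of Slc7a7, and Slc7a10, an exchanger of small neutral amino acids, were also called in none.

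Uniporters and facilitated carriers that work without a heavy subunit gave few calls. Slc16a10, a uniporter of aromatic amino acids, differed by -0.62 ± 0.39 in the stomach and -0.52 ± 0.48 in the colon, and neither passed. Slc43a1, a facilitated carrier of large neutral amino acids, had -2.08, -2.22 and -2.29 in the stomach, against -4.06, -5.09 and -4.55 in duodenal samples, -5.08, -4.20 and -4.09 in jejunal samples and -3.48, -2.73 and -2.61 in ileal samples. Every stomach sample was above every small bowel sample, of which 6 of 9 were above background. The difference was 1.79 ± 0.33 (adjusted p = 5.0e-04, limma), or 0.42 with normexp (adjusted p = 0.23). Slc43a1 is also abundant in the pancreas, and 5 of 13 pancreatic acinar markers were higher in the stomach, against 15.7% of all genes (median difference 0.49, all genes 0.28). Their part in the result was not tested.

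Slc43a2, a close relative of Slc43a1, gave 2 answers. Its brightest probe differed by 0.16 ± 0.25 in the stomach and 0.01 ± 0.31 in the colon, and neither passed. The second probe, above background in all 15 samples, had 0.01, -0.03 and 0.10 in the stomach and -0.35, -0.41 and -0.99 in the colon, against 1.49, 1.89 and 1.58 in duodenal samples, 4.49, 2.34 and 2.58 in jejunal samples and 2.06, 2.75 and 2.38 in ileal samples. By that probe the gene was lower in the stomach (-2.37 ± 0.34, adjusted p = 4.7e-05) and in the colon (-2.90 ± 0.43, adjusted p = 1.2e-04), both in a limma fit of every tested probe.

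**Figure D2:**
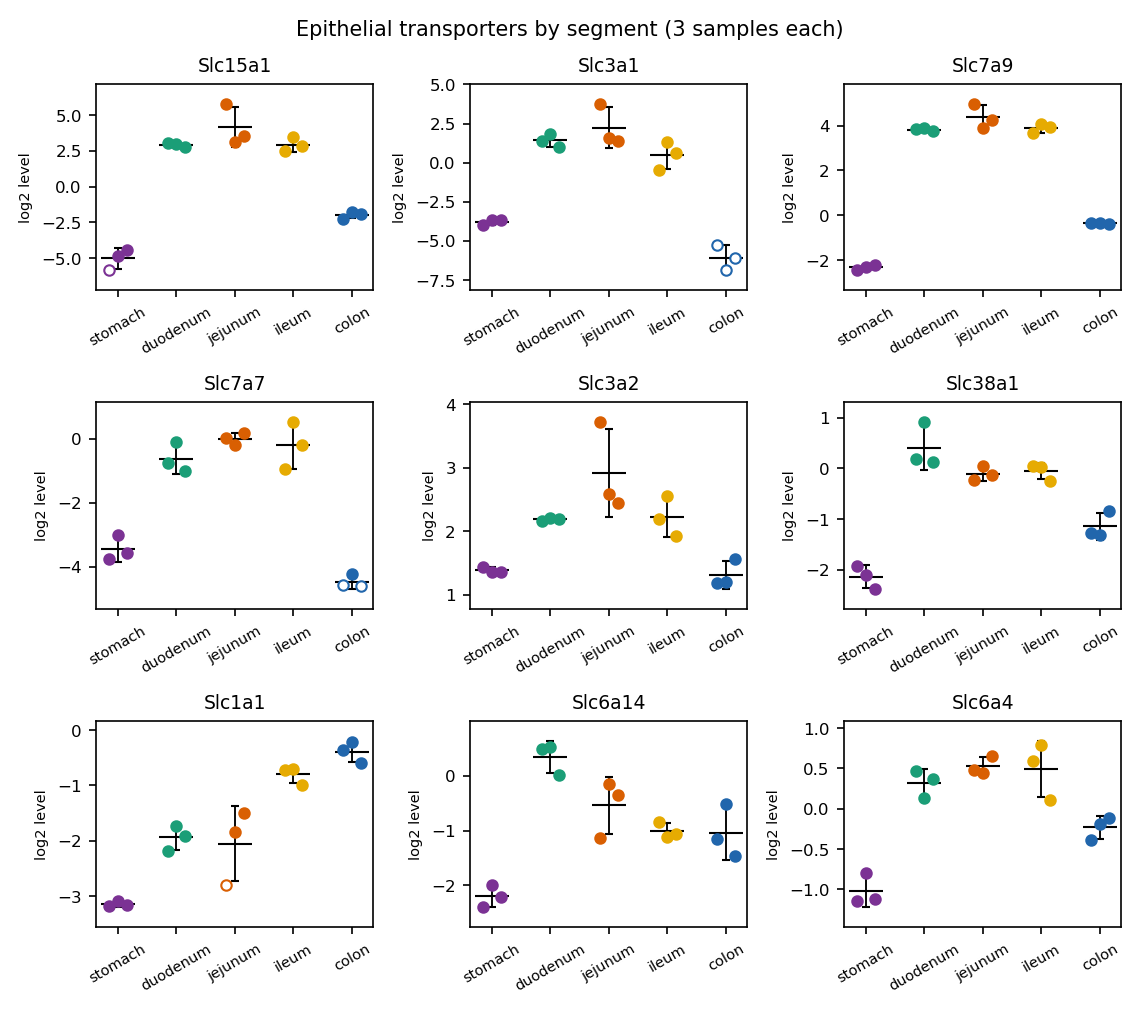
Log2 levels of 9 epithelial transporters in each of the 15 samples (points; open points were not well above background), with the mean and SD of each segment (black bar and whiskers, n = 3). Slc15a1, Slc3a1, Slc7a9 and Slc7a7 sit below every small bowel sample in both the stomach and the colon, while Slc1a1 is highest in the colon and Slc6a14 in the duodenum.

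Slc1a1, the sodium-coupled carrier of glutamate and aspartate at the brush border, had -3.18, -3.08 and -3.16 in the stomach, -2.18, -1.73 and -1.91 in duodenal samples, -2.80, -1.85 and -1.49 in jejunal samples, -0.73, -0.69 and -0.98 in ileal samples and -0.36, -0.21 and -0.59 in the colon. The stomach lay below every small bowel sample, the colon above every one and the ileum above every jejunal one. It was the only tested transporter called lower in the stomach (-1.55 ± 0.28, adjusted p = 4.2e-04, limma) and higher in the colon (1.10 ± 0.35, adjusted p = 0.028, limma).

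Of neighbours along the tract, the stomach was below the duodenum (-1.10 ± 0.34, adjusted p = 0.026, limma) and the ileum above the jejunum (1.35 ± 0.34, adjusted p = 0.033, limma). Duodenum against jejunum and ileum against colon were not called. The ileal call was lost without jejunum 1 (0.91, adjusted p = 0.18), without any of 6 other samples (adjusted p up to 0.093) with scan day as a random block (adjusted p = 0.057) or with normexp (0.59, adjusted p = 0.12). The colon call was lost without duodenum 3 (1.05, adjusted p = 0.052), colon 1 (0.90, adjusted p = 0.14) or colon 2 (1.07, adjusted p = 0.055).

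Slc1a5, an exchanger of neutral amino acids that takes up glutamine, was highest in the colon. It had 2.76, 2.91 and 3.52 there, against 0.35 to 1.42 in the small bowel (median 1.00), with no overlap, and 0.64 to 1.09 in the stomach. The colon minus the small bowel was 2.00 ± 0.29 (4.01-fold, adjusted p = 9.8e-05, limma). Its second probe, above background in 12 of 15 samples, gave -0.83 ± 0.41 and no call (adjusted p = 0.15, limma), and the mean of both gave 0.59 (adjusted p = 0.11).

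Carriers of the Slc38 family, which move glutamine and other small neutral amino acids with sodium, were called in opposite directions. Slc38a2, the amino acid-responsive member, had 4.11, 3.49 and 3.73 in the colon, against 1.25 to 2.73 in the small bowel (median 1.94) and 2.47 to 2.79 in the stomach. The colon was above all other samples, and the difference was 1.94 ± 0.28 (3.83-fold, adjusted p = 1.1e-04, limma); the second probe gave 1.61 ± 0.29 (adjusted p = 7.7e-04, limma). In the stomach the probes were called in opposite directions, 0.69 ± 0.23 for the brightest (adjusted p = 0.031) and -0.74 ± 0.23 for the second (adjusted p = 0.024, limma). Without stomach 3 the brightest probe's difference was 0.47 (adjusted p = 0.26), and the call was also lost without stomach 1, jejunum 3 or ileum 2 (0.64 to 0.74, adjusted p = 0.052 to 0.077) and with scan day as a random block (adjusted p = 0.21).

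Slc38a1, its near relative, was lower in both. It had -1.92, -2.10 and -2.37 in the stomach and -1.27, -1.31 and -0.84 in the colon, against -0.24 to 0.90 in the small bowel (median 0.04), with no overlap. The differences were -2.22 ± 0.24 (adjusted p = 2.1e-06, limma) and -1.25 ± 0.30 (adjusted p = 0.0061, limma). Slc38a3, which carries glutamine, histidine and asparagine, was higher in the colon (0.98 ± 0.31, adjusted p = 0.026, limma) at 0.39, 0.30 and 0.96, against -1.07 to -0.17 in the small bowel; this call was lost without duodenum 2, colon 1 or colon 3 (0.81 to 1.06, adjusted p = 0.050 to 0.094) and with normexp (0.57, adjusted p = 0.066). Slc38a5, of the same kind, was not called, with 0.45 ± 0.25 in the stomach and 0.11 ± 0.32 in the colon. Slc38a6, a less studied member, was lower in the colon (-1.21 ± 0.31, adjusted p = 0.0090, limma), while its next brightest probe gave 0.46 (adjusted p = 0.49) and its dimmest probe -0.83 (adjusted p = 0.21). In the stomach the next brightest probe was higher (1.18 ± 0.37, adjusted p = 0.024, limma), and the other probes were not called.

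The cationic carrier Slc7a1 stood out in the stomach by its brightest probe. It had 4.16, 4.34 and 4.27 there, against 0.52 to 1.42 in the small bowel (median 0.73) and 0.36 to 0.48 in the colon. The stomach samples stood far above all 12 others, by 3.36 ± 0.20 over the small bowel (10.3-fold, adjusted p = 1.2e-09, limma). The second probe went the other way, at -0.30, -0.69 and -0.31 in the stomach and -0.88, -1.23 and -1.22 in the colon, against -0.12 to 0.57 in the small bowel. By it Slc7a1 was lower in the stomach (-0.73 ± 0.20, adjusted p = 0.0094) and in the colon (-1.36 ± 0.24, adjusted p = 6.7e-04, limma). Slc7a2 and Slc7a3, the other cationic carriers, were called in no contrast.

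**Figure D3:**
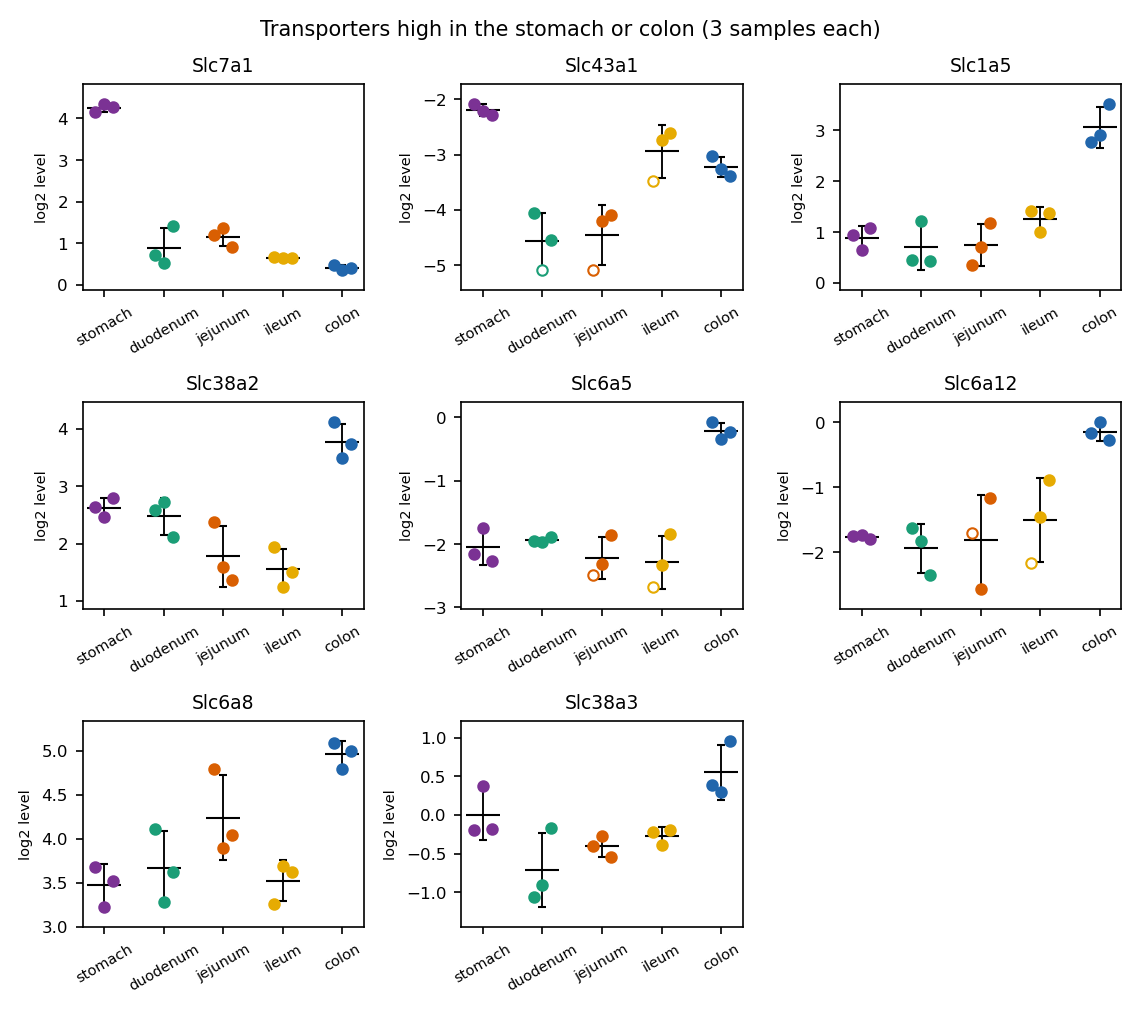
Log2 levels of 8 transporters called higher in the stomach or the colon than in the small bowel, in each of the 15 samples (points; open points were not well above background), with the mean and SD of each segment (n = 3). The 3 stomach samples stand above all others for Slc7a1 and Slc43a1, and the 3 colon samples for Slc1a5, Slc38a2, Slc6a5 and Slc6a12.

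Sodium- and chloride-coupled carriers of the Slc6 family split by segment. Slc6a14, a carrier of neutral and cationic amino acids, had -2.38, -1.98 and -2.22 in the stomach and -1.16, -0.52 and -1.47 in the colon, against 0.49, 0.53 and 0.01 in duodenal samples, -1.13, -0.15 and -0.35 in jejunal samples and -0.85, -1.13 and -1.06 in ileal samples. The stomach lay below every other sample and all duodenal samples lay above all other samples. The stomach minus the small bowel was -1.79 ± 0.29 (adjusted p = 1.8e-04, limma). The duodenum minus the colon was 1.39 ± 0.41 (adjusted p = 0.021, limma), while the duodenum minus the jejunum, 0.87 ± 0.29, was not called (adjusted p = 0.31, limma). All 3 arrays that held a duodenal and a jejunal sample had the duodenum higher.

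Slc6a4, the serotonin transporter of the epithelium and of nerve fibres, was lower in the stomach. It had -1.15, -0.80 and -1.13 there, against 0.11 to 0.78 in the small bowel (median 0.46), a difference of -1.47 ± 0.20 (adjusted p = 3.3e-05, limma). The second probe gave -1.67 ± 0.23 (adjusted p = 2.3e-05, limma). Its colon levels of -0.39, -0.19 and -0.11 lay below all small bowel samples, but that difference, -0.69 ± 0.26, was not called (adjusted p = 0.058, limma).

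Slc6a2, the noradrenaline transporter, and Slc6a17, a vesicular carrier of neurons, were higher in the stomach by 0.81 ± 0.29 (adjusted p = 0.046) and 0.66 ± 0.23 (adjusted p = 0.045, limma). Both calls lay near the threshold and were lost without any 1 of 12 samples for Slc6a2 (0.72 to 0.86, adjusted p up to 0.19) and any 1 of 10 for Slc6a17 (0.56 to 0.77, adjusted p up to 0.24). Slc1a3, a glutamate carrier of glia, was higher in the stomach (0.91 ± 0.29, adjusted p = 0.027, limma), at -1.46, -1.22 and -1.01, against -2.75 to -1.60. It was not called without any 1 stomach sample (adjusted p = 0.060 to 0.17) or with normexp (0.46, adjusted p = 0.072), and its dimmer probe, above background in 8 of 15 samples, gave 3.95 ± 0.45 (adjusted p = 3.6e-06, limma). Other carriers known from nervous tissue, Slc1a2, Slc1a6, Slc6a3, Slc6a5, Slc6a7 and Slc6a11, were not called in the stomach. Of 9 tested neuronal and glial markers, 3 were higher in the stomach (median difference 0.62), as were 5 of 6 fibroblast markers (median 2.57) and 4 of 5 endothelial markers (median 2.10), against 15.7% of all genes. The part of these cell types in the result was not tested.

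In the colon these genes went the other way or were not called. Slc6a17 was lower there (-2.21 ± 0.29, adjusted p = 4.5e-05, limma; -0.68 with normexp, adjusted p = 0.023), with -3.78, -3.96 and -3.66 against -2.03 to -1.17 in the small bowel, and 1 of 3 colon samples was well above background, so the size is uncertain. Slc1a3 was lower too (-1.67 ± 0.36, adjusted p = 0.0029, limma), but not with normexp (-0.18, adjusted p = 0.55). Slc6a2 was not called.

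Higher in the colon were 3 other carriers. Slc6a5, the glycine carrier of inhibitory neurons, had -0.08, -0.33 and -0.23 in the colon, against -2.68 to -1.85 in the small bowel (median -1.97) and -2.26 to -1.74 in the stomach. The colon was above all other samples by this probe, and the difference was 1.92 ± 0.32 (adjusted p = 3.9e-04, limma). Neuronal and glial markers averaged -1.84 to -1.46 in the same colon samples, within the range of the small bowel. Slc6a12, a carrier of betaine and GABA, had -0.16, 0.00 and -0.27 in the colon, against -2.56 to -0.88 (1.56 ± 0.38, adjusted p = 0.0065, limma). Slc6a8, the creatine transporter, was higher by 1.25 ± 0.30 (adjusted p = 0.0053, limma), at 4.79 to 5.09, against 3.26 to 4.79, where jejunum 1 overlapped. The call was lost with normexp (0.74, adjusted p = 0.078) and quantile normalization (0.59, adjusted p = 0.097). With the second probe Slc6a8 differed by -0.10 (adjusted p = 0.87) in the colon and by -2.70 ± 0.29 in the stomach (adjusted p = 1.6e-06, limma). The taurine carrier Slc6a6 and the glycine carrier Slc6a9 were called in no contrast.

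**Figure D4:**
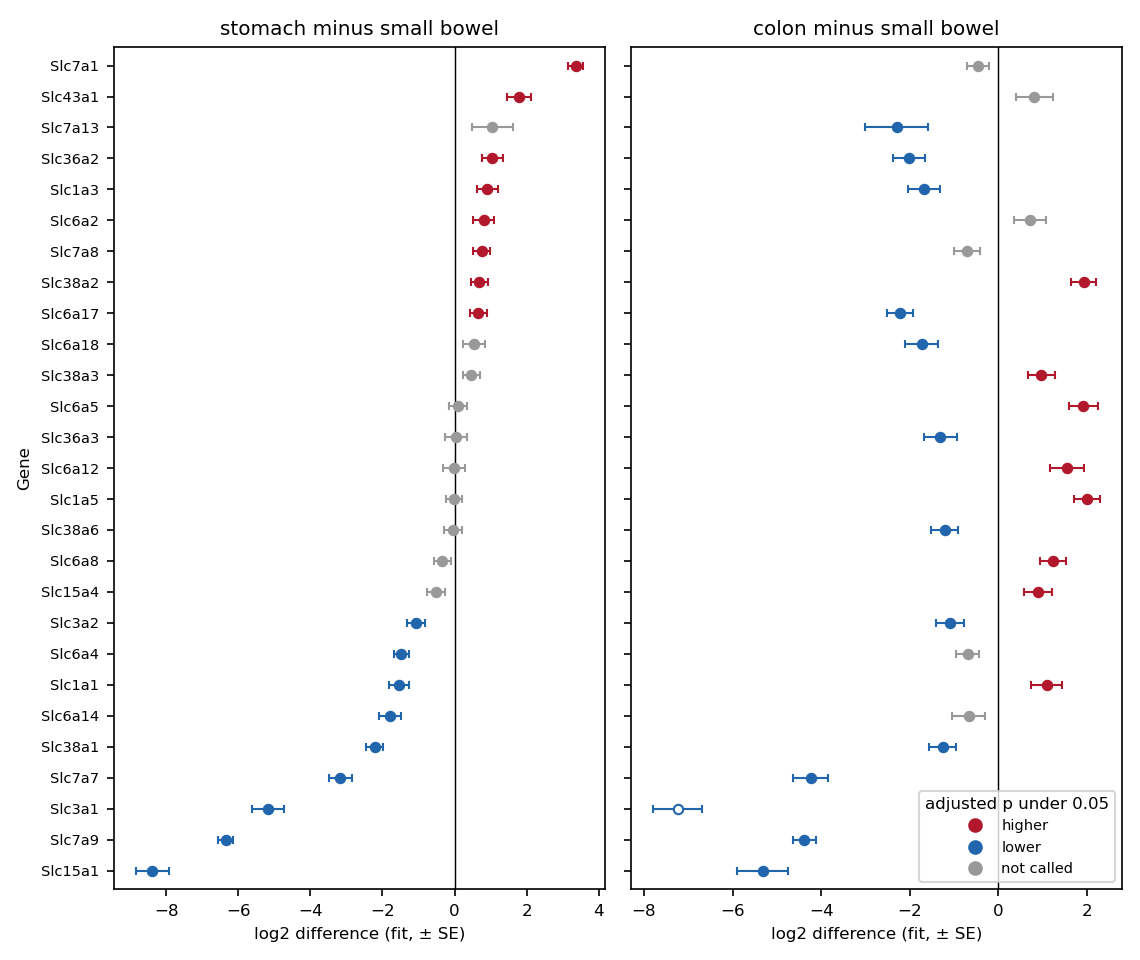
Log2 differences with SE of 27 transporters called in the stomach or the colon against the small bowel (left, stomach minus small bowel; right, colon minus small bowel). Red and blue mark an adjusted p under 0.05, higher or lower, grey marks no call, and the open point (Slc3a1, colon) had no colon sample well above background; the 6 genes blue on both sides are Slc15a1, Slc7a9, Slc3a1, Slc7a7, Slc38a1 and Slc3a2.

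Proton-coupled carriers of the Slc36 family were called in both directions. Slc36a1, the carrier of small neutral amino acids known from enterocytes, ranged from -3.69 to -2.31 over all 15 samples and was called in no contrast. Slc36a2, its relative of the kidney, had -0.78, -0.98 and -0.86 in the stomach and -4.20, -3.74 and -3.86 in the colon, against -2.80 to -1.58 in the small bowel (median -1.85). It was higher in the stomach (1.05 ± 0.29, adjusted p = 0.013, limma) and lower in the colon (-2.01 ± 0.37, adjusted p = 7.9e-04, limma), without overlap. The stomach call was lost without stomach 1 or stomach 3 (adjusted p = 0.072 and 0.073) and with scan day as a random block (adjusted p = 0.092), and the colon call with normexp (-0.41, adjusted p = 0.14). Slc36a3 (-1.31 ± 0.38) and Slc6a18 (-1.73 ± 0.38), a kidney carrier of neutral amino acids, completed the 13 lower in the colon (adjusted p = 0.018 and 0.0033, limma). Slc36a3 was not called without colon 3 (-1.09, adjusted p = 0.073), and Slc6a18 not with normexp (-0.36, adjusted p = 0.21).

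Within the small bowel few transporters were called. Limma called 0 of 54 between duodenum and jejunum (background 0.251% higher, 0.296% lower), and 8 had an unadjusted p under 0.05. Over the 3 arrays that held both segments, 6 transporters had the duodenum higher each time (10.6% of all genes did) and 8 the jejunum (13.8% of all genes did). Between ileum and jejunum, 2 were higher in the ileum (background 1.49%), Slc1a1 and Slc43a1, and 0 were lower (background 2.85%). An unadjusted p under 0.05 was reached by 14 of 54 here. The background shares are for adjusted calls, and none is given at the unadjusted limit. Neither unadjusted count can therefore be read as an excess over other genes. Slc43a1 was higher by 1.46 ± 0.40 (adjusted p = 0.049, limma), with 2 of 3 ileal and 2 of 3 jejunal samples above background, and lost this call without any 1 of 10 samples (1.15 to 1.51, adjusted p up to 0.24), with normexp (0.21, adjusted p = 0.75), with scan day as a random block (adjusted p = 0.067), with the replicate block (adjusted p = 0.095) and without the filter on dim probes (adjusted p = 0.054).

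A transporter was placed in a segment if its level there was above that of all 4 others, at adjusted p under 0.05 for each pair. This held for 5 of 54 transporters, against 7.7% of all genes. The stomach had 2, among them Slc7a1 (background 3.97%), and the colon 3, Slc1a5, Slc38a2 and Slc6a5 (background 3.45%). The other stomach gene passed the filter through the stomach alone, so its placement and its stomach call depend on that filter. With the filter that ignores the stomach samples, 984 of all genes were placed in the stomach, against 1313 in the main fit. The duodenum, jejunum and ileum had 0 each (background 0.0605%, 0.0454% and 0.178%), by the same limma fits. By family, 3 of 7 Slc1, 2 of 2 Slc3, 8 of 16 Slc6, 5 of 11 tested Slc7, 2 of 4 Slc15, 0 of 1 Slc16, 2 of 4 Slc36, 3 of 6 Slc38 and 1 of 3 Slc43 genes differed among segments. Of all genes, 42.3% did, and most families are too small to be set apart from that share.

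Probes decided several of these results. Of 12 members with more than 1 tested probe, Slc6a4 gave the same call from both probes in the stomach and Slc1a3 in both contrasts, while Slc7a1, Slc38a2, Slc43a2, Slc6a8, Slc1a5, Slc15a4 and Slc38a6 had a call from 1 probe that the next did not share in at least 1 contrast. Slc7a2, Slc7a10 and Slc1a2 were called by none of their probes. What the probes of a gene detect, such as other transcript ends, was not tested. Members with a single probe, among them Slc15a1, Slc3a1, Slc7a9, Slc7a7, Slc3a2 and Slc38a1, had no such check.

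**Figure D5:**
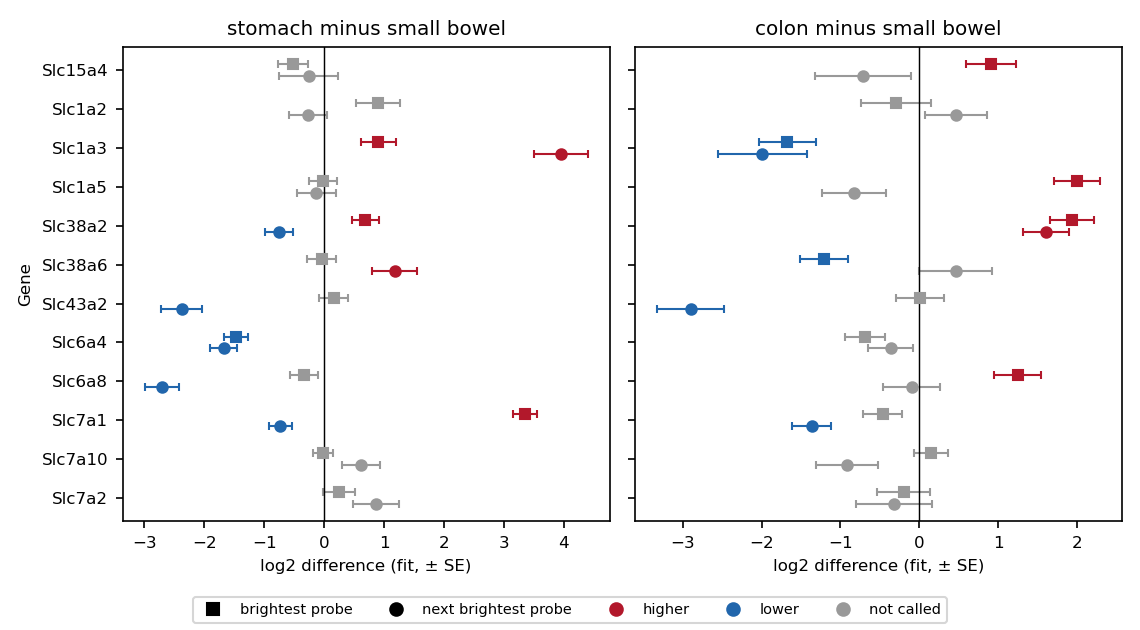
Log2 differences with SE for the brightest probe (squares) and the next brightest (circles) of the 12 transporters with more than 1 tested probe, for the stomach minus the small bowel (left) and the colon minus the small bowel (right). Colour marks the call at adjusted p under 0.05; for Slc7a1 in the stomach the squares and circles lie at 3.36 and -0.73.

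Peptidases that release the substrates of these carriers were lower at both ends more often than higher. The lists were chosen with earlier results of these data known. Of 12 brush border peptidases and carrier partners, 10 were lower and 1 higher in the stomach, with a median difference of -1.81, and 6 were lower and 2 higher in the colon (median -0.91). Of all genes, 11.8% were lower and 15.7% higher in the stomach, and 13.3% lower and 12.5% higher in the colon. Enpep, an aminopeptidase for acidic residues, was lower in the stomach (-5.30 ± 0.47, adjusted p = 2.1e-07, limma) and in the colon (-6.45 ± 0.60, adjusted p = 1.0e-06, limma), where 2 of 3 samples were above background. Mep1b, a meprin subunit, was lower in the stomach (-7.22 ± 0.34, adjusted p = 7.9e-11, limma) and not called in the colon (0.59 ± 0.43). Dpp4 and Mep1a were lower in the stomach (-2.08 and -1.39) and higher in the colon (1.27 and 1.13), but the colon call of Mep1a was lost without any 1 of 7 samples (adjusted p up to 0.091) and that of both with quantile normalization. Tmprss15, the enteropeptidase that activates trypsinogen, was higher in the duodenum than in the jejunum (1.69 ± 0.32, adjusted p = 0.023, limma), a call lost without any 1 of 3 samples (adjusted p up to 0.53).

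Cltrn, which in the kidney escorts neutral amino acid carriers to the membrane, was higher in the stomach (1.78 ± 0.27, adjusted p = 7.0e-05, limma). Of 5 tested cytosolic peptidases, 4 were lower in the stomach and 2 in the colon, and none was higher; Pepd, which splits dipeptides ending in proline, differed by -3.83 ± 0.25 in the stomach and -2.97 ± 0.31 in the colon. Of 5 genes that maintain the driving gradients, 3 were lower in the stomach, and 2 lower and 1 higher in the colon. The sodium and proton exchanger Slc9a3 was called in neither.

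Enzymes of glutamine, glutamate and urea cycle metabolism gave 12 lower and 4 higher of 19 tested in the stomach (median -1.87) and 8 lower and 1 higher in the colon (median -0.15). Of all genes, 11.8% were lower and 15.7% higher in the stomach, and 13.3% lower and 12.5% higher in the colon. Otc, which makes citrulline, differed by -7.41 ± 0.34 in the stomach and -6.25 ± 0.42 in the colon (adjusted p = 4.4e-11 and 3.7e-08, limma). Glul, which makes glutamine, went the other way, by 4.77 ± 0.35 in the stomach, 4.90 ± 0.44 in the colon and 2.74 ± 0.43 in the ileum over the jejunum (adjusted p = 2.0e-08, 8.5e-07 and 0.0022, limma). The ileal call was lost with normexp (0.76). Over the alternatives the stomach difference fell as low as 2.72 and the colon difference as low as 2.53, so these sizes are uncertain. Of 12 tested genes of the amino acid deprivation response, 3 were higher and 3 lower in the stomach and 3 higher and 1 lower in the colon. These counts are too small to be set apart from the shares of all genes given above. Asns, which makes asparagine, was higher in the stomach (0.61 ± 0.20, adjusted p = 0.027, limma) and in the ileum against the jejunum (0.97 ± 0.24, adjusted p = 0.030, limma), calls lost without any 1 of 3 and of 6 samples (adjusted p up to 0.15 and 0.12).

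A further 10 genes of these families carried other names on the array and lie outside the rule. Slc6a20a, the carrier of proline and other imino acids, was lower in the stomach (-1.09 ± 0.23, adjusted p = 0.0015, limma) and not called in the colon (0.20 ± 0.29). Slc7a3l1 was lower in the colon (-1.03 ± 0.30, adjusted p = 0.019, limma), and the other 8 were called in neither contrast.

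Promoter sequences from RefSeq (build GRCr8, 250 bases before to 50 after the start) were at hand for 41 of the 55 genes, as 45 windows. Motifs were searched on both strands as exact letters. The amino acid response element TGATGNAA was in 3 of 45 windows (6.67%), of Slc1a4, Slc38a1 and Slc7a1, against 3.98% of all 33469. The Cdx motif TTTATGG was in 2 (4.44%), of Slc36a2 and Slc6a14, against 3.07% of all. The Hnf4 motif CAAAGTCCA was in 1 (2.22%), of Slc3a1, against 0.391% of all, and the Hnf1 motif GTTAATNAT was in 0, against 0.747% of all. Windows of 2 genes lower at both ends, Slc3a1 and Slc38a1, and of Slc7a1 are shown, with the matches in capitals. A match only describes these letters. From the start of the gene, the match of Slc3a1 began at -89, that of Slc38a1 at -142 and that of Slc7a1 at -30. The windows are chr6:15394700-15394999 on the minus strand for Slc3a1, chr7:129681352-129681651 on the minus strand for Slc38a1 and chr12:11664238-11664537 on the plus strand for Slc7a1.
Slc3a1: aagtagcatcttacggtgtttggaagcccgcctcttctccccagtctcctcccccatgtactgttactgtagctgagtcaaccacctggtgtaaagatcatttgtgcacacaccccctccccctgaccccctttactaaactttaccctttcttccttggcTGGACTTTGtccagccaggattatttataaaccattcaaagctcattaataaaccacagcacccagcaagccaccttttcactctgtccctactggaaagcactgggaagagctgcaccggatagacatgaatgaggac
Slc38a1: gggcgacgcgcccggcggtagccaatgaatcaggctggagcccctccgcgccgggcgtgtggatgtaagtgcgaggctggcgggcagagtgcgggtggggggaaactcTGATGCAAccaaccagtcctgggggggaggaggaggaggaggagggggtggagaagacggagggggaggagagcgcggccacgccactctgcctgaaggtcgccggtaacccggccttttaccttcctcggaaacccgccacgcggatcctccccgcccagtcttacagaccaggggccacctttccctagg
Slc7a1: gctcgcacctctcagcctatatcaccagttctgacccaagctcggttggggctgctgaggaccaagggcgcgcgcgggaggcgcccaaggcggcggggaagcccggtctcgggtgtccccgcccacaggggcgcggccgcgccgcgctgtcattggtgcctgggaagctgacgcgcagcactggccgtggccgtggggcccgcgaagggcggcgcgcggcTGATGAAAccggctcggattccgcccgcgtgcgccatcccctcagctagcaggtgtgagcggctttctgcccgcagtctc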

How the data were processed

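Total RNA of 15 samples was hybridised to Agilent 2-channel whole-genome rat arrays, and each sample is 1 channel. The deposited scanner files hold intensity values that Agilent's Feature Extraction software had background-subtracted and dye-normalized, per the file headers; the value table deposited beside them holds the same intensity values (within 0.02 log2). From these, log2 of the processed signal minus each sample's 75th percentile was computed, without control spots and outlier-flagged spots (Slc38a4 lost jejunum 2 this way). Spots of a probe were averaged, and the brightest probe stood for a gene. Of 41012 probes, 11047 were named by accession, 6336 by current symbol, 3993 by an older symbol and 19636 as in the files. The number of arrays limits the precision, and 44.4% to 97.1% of spots per sample were well above background.

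One linear model was fitted over all genes with limma 3.58.1 in R 4.3.3 (lmFit, eBayes with an intensity trend), with segment and dye as terms and slide as a random block (correlation 0.361), since duodenal and jejunal samples shared 3 arrays and the colon samples a slide. The scripts (Python 3.11.15) were tested on simulated data. Replicate numbers did not pair the samples: deviations of same-numbered samples correlated between -0.42 and 0.30. Full statistics went to carriers known from gut epithelium, to the called members with the largest differences in each contrast and to those placed in 1 segment. The members and lists were chosen with earlier results of these data known. The normexp alternative (offset 50) used median spot signals, because the mean was not in all files used here. Reading the next brightest probe was chosen after seeing that probes disagree. Results of 3 genes and the sequence of 1 probe are not reported here, and the figures leave out 1 of these genes.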

Additional observations from a re-analysis of the deposited data

How the results depend on the processing

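Of 41 called differences of transporters, 18 kept their call and direction under every alternative, 22 lost the call under at least 1 and 6 changed sign under at least 1. With the next brightest probe, chosen after seeing the data, the sign turned for Slc7a1 (-0.73) and Slc38a2 (-0.74) in the stomach and for Slc15a4 (-0.71), Slc1a5 (-0.83), Slc38a6 (0.46) and Slc6a8 (-0.10) in the colon; the mean over probes turned Slc38a2 in the stomach (-0.028). Oat, an enzyme of the ornithine pathway, turned in the ileum against the jejunum with normexp (0.22) and quantile normalization (0.33). Counts moved beyond 1.5 times as follows, with the count over all genes in the same setting in brackets. In the main fit, all genes gave 5179 higher in the stomach, 4144 higher in the colon, and 492 higher and 941 lower in the ileum. Normexp gave 5 transporters higher in the stomach (4219), 1 higher in the ileum (633) and 1 lower in the ileum (824). Scan day as a random block gave 3 higher in the stomach (2505) and 0 higher in the ileum (222). The mean over probes gave 5 higher in the colon (3705). Without the filter on dim probes or with outlier spots kept, 1 was higher in the ileum (436 each time). Lower in the ileum were 1 with the filter that ignores the stomach samples (1134) and 2 without the slide block (1131). Without duodenum 2 and jejunum 1 together, 1 was lower (490) and 0 were higher (291) in the ileum. The replicate block, by numbers that do not pair the samples, gave 13 higher in the colon (6569) and 1 higher in the ileum (331). Leaving out 1 sample gave 22 to 32 transporters called among segments, 3 to 11 higher and 9 to 10 lower in the stomach, 5 to 9 higher and 11 to 14 lower in the colon, 0 to 1 higher and 0 to 2 lower in the duodenum, 0 to 3 higher and 0 to 6 lower in the ileum, and 4 to 6 placed in 1 segment. The lowest stomach count came without stomach 1 or stomach 3, the lowest colon count without colon 1 and the highest ileal count without jejunum 2. All genes then gave 3175 and 2889 higher in the stomach, 2633 higher in the colon, and 1704 higher and 1877 lower in the ileum. Over the fits without 1 sample, 10225 to 15440 of all genes were called among segments, against 13985 in the main fit. The cause of these changes was not tested. Of 80 called differences of pathway genes, 53 kept their call under every alternative. Levels not well above background limit what can be read from dim probes, mostly in the ileum and jejunum.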
